A study of Mus musculus with 2 samples.

Results

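Pericytes of the mouse cerebellum were described here in 409 cells, out of 3451 cells that passed the quality filters in both libraries of the study. A cell was taken as a pericyte when it held at least 1 UMI (unique molecular identifier, 1 counted mRNA molecule) of 3 or more of the 5 genes Abcc9, Kcnj8, Atp13a5, Vtn and Notch3 and fewer than 3 of the 5 fibroblast genes Dcn, Col1a1, Lum, Apod and Igfbp6. The study profiled dissociated cerebellar cells with droplet-based 3′ single-cell RNA sequencing. One library, labelled WT, came from wild-type C57BL/6 littermates, and the other, labelled KIKO, came from mice with 1 knock-in and 1 knock-out allele of a gene that is not reported here. The KIKO alleles are carried in all cells from conception, with no Cre or cell-type promoter involved. The labels give no age and no number of animals. The cerebella of several mice of a genotype were pooled, digested with Accumax, frozen and thawed before capture, so each genotype is 1 library and differences between the libraries have no replicate check. The library labelled WT held 173 pericytes among 1388 filtered cells, and the library labelled KIKO held 236 among 2063.

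Pericytes are the mural cells of capillaries. They lie within the basement membrane shared with endothelial cells, touch those cells directly, and are recruited to growing vessels by endothelial PDGF-B acting on the receptor PDGFRB. In the brain they are known for their part in the blood-brain barrier and in the control of capillary diameter, and their resting potential is set in part by an ATP-sensitive potassium channel whose pore, Kir6.1, is encoded by Kcnj8 and whose regulatory subunit, SUR2, is encoded by Abcc9. These genes lie next to each other on the minus strand of chromosome 6, Kcnj8 at chr6:142564837-142571614 and Abcc9 at chr6:142587862-142702315 in the GENCODE annotation of GRCm38. Vascular smooth muscle cells, the mural cells of larger vessels, share Notch3 and Rgs5 with pericytes but carry a full set of contractile proteins.

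Pericytes made up 12.5% of the filtered cells in the library labelled WT (exact binomial 95% interval, counting error only, 10.8 to 14.3) and 11.4% in the library labelled KIKO (10.1 to 12.9). The intervals of the shares overlap. The pericytes gave 1727064 UMIs in WT and 1964871 in KIKO, with a median per cell of 9049 and 6989.5. Both libraries had been sequenced to 54779323 and 38399562 deposited UMIs in all. No cell barcode was shared between the filtered cells of the libraries.

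Many cells that met the rule also carried endothelial mRNA. At least 3 of the endothelial genes Cldn5, Flt1, Pecam1, Cdh5 and Slco1a4 were found in 107 of the WT pericytes (61.8%, 54.2 to 69.1) and in 109 of the KIKO pericytes (46.2%, 39.7 to 52.8). The numbers fell into groups with few or nearly all of these genes. In WT, 30 pericytes had none, 30 had 1, 6 had 2, 1 had 3, 14 had 4 and 92 had all 5, and in KIKO the numbers were 63, 54, 10, 10, 14 and 85. With endothelial genes counted after every cell was thinned to 2000 UMIs, the shares were 58.7% of 167 WT and 43.6% of 225 KIKO pericytes. These pericytes were still chosen at full depth, so the part of depth in the lower KIKO share was not tested. Median UMIs per cell were 13103 in WT and 11628 in KIKO for pericytes with at least 3 endothelial genes, and 4326.5 and 5156 for those with fewer. At least 3 endothelial genes were carried by 2.78% of microglia in WT and 4.55% in KIKO, by 15% and 20% of fibroblasts and by 31.8% and 54.7% of choroid plexus epithelial cells. The share was thus higher in the library labelled KIKO in choroid plexus epithelium, where the 95% intervals did not overlap (24.8 to 39.3 and 44.8 to 64.4), and lower in pericytes.

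**Figure D1:**
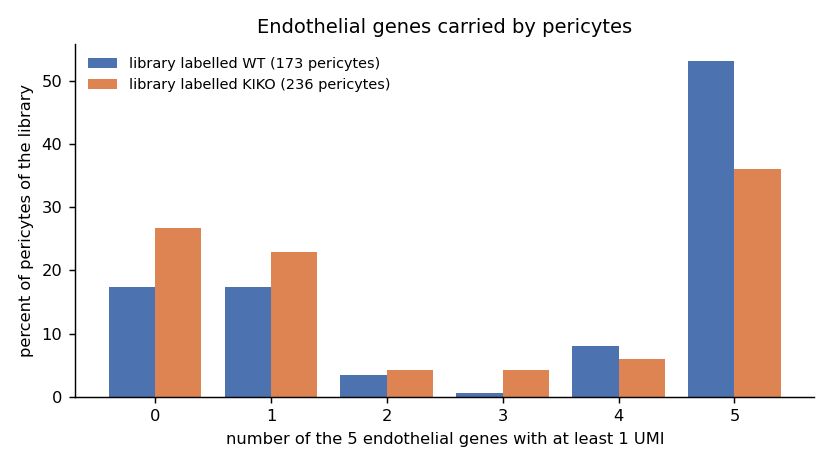
Percent of the pericytes of each library (vertical axis) by how many of 5 endothelial genes they carried (horizontal axis, 0 to 5 genes), for the libraries labelled WT and KIKO. Both distributions have a peak at 0 and 1 genes and a peak at 5 genes, which held 92 of 173 WT and 85 of 236 KIKO pericytes.

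Pericyte genes were lower in the cells with endothelial mRNA. Abcc9 there stood at 34.4% of its level in the other pericytes in WT and at 31.5% in KIKO, and Pdgfrb, which the rule did not use, stood at 30.9% and 30.4%. In the same cells Cldn5, a tight-junction protein, reached 73.3% in WT and 65.9% in KIKO of its level in endothelial cells. Cells carrying both sets of genes can be a pericyte and an endothelial cell captured together or a pericyte with adhering endothelial RNA, and these cannot be told apart here. Results are therefore given for all pericytes, for the 66 WT and 127 KIKO pericytes with fewer than 3 endothelial genes (endothelial-poor pericytes), and for the others (endothelial-rich pericytes). Endothelial-poor pericytes were 4.76% of filtered cells in WT (3.7 to 6.01) and 6.16% in KIKO (5.16 to 7.28).

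The markers matched the label in the endothelial-poor pericytes. The cells were selected on the detected UMIs of the 5 genes of the rule, so the shares and levels of these genes are not a finding. Levels are counts per 1000000 UMIs summed over the cells (CPM), and because tags come from the 3′ end they are not scaled by gene length. Vtn, the matrix protein vitronectin, stood at 9369 CPM in WT and 8744 CPM in KIKO, Atp13a5, a P5-type transport ATPase, at 2979 and 3592, Abcc9 at 1756 and 1953, the receptor gene Notch3 at 958 and 1171, and Kcnj8 at 717 and 770. A UMI of Abcc9 was found in 95.5% of the WT and 93.7% of the KIKO cells, against 4.69% and 4.11% of endothelial cells. Pdgfrb, outside the rule, was found in 93.9% and 93.7%, against 3.21% and 3.88% of endothelial cells. Around the threshold, Pdgfrb stood at 31.5 CPM in WT and 47.8 CPM in KIKO in cells with exactly 2 of the 5 genes (53 and 91 cells), and at 144 and 133 CPM in cells with exactly 3 (27 and 38 cells). Cells with 4 had 388 and 768 CPM, and cells with all 5 had 741 and 928 CPM.

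RNA of other cell types differed in amount. The 5 neuronal marker genes had no UMI in the pericytes of either library, which allows a level of up to 1.74 CPM per gene in WT and 1.53 CPM in KIKO. No pericyte carried 3 T cell or 3 astrocyte markers, which allows a share of up to 1.73% in WT and 1.27% in KIKO. At least 3 microglial markers were found in 2 WT and 2 KIKO pericytes, at least 3 choroid plexus markers in 9 and 13, and at least 3 red blood cell markers in 0 and 5. Red blood cell genes summed to 8.69 CPM in WT and 2018 CPM in KIKO. Of the 5 fibroblast genes, which the rule limited, Col1a1 and Lum were at 0, and the list, mainly Apod and Dcn, summed to 166 CPM in WT and 136 CPM in KIKO. No fibroblast gene was found in 83 of the 173 WT and 135 of the 236 KIKO pericytes. The choroid plexus list summed to 2028 CPM in WT and 6222 CPM in KIKO, nearly all of it Ttr.

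Beyond the marker genes, endothelial-poor pericytes held a set of genes that endothelial cells of the same libraries nearly lacked. Of 6268 genes tested, 542 (8.65%) were at least 4-fold higher and 533 (8.5%) at least 4-fold lower than in endothelial cells in both libraries. The cells were separated by their own counts, so these values are a description with no test. Metabotropic glutamate receptors were among the most separated genes. Grm3 stood at 2027 CPM in WT and 2156 CPM in KIKO, with log2 ratios over endothelial cells of 10.71 and 11.15, and Grm7 stood at 3730 and 3955 CPM with log2 ratios of 9.84 and 10.70. The amino acid transporter gene Slc38a11 (862 and 1016 CPM) had log2 ratios of 9.67 and 9.93, and the manganese exporter gene Slc30a10 (289 and 296 CPM) had 9.90 and 8.61. The cation channel gene Trpc4 (265 and 310 CPM) had 9.78 and 9.35, and Pde8b, which encodes a cAMP phosphodiesterase (2317 and 3184 CPM), had 8.86 and 9.64. Pdgfrb had 7.96 and 7.93.

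Beside the 8.65% of all genes that were at least 4-fold higher, some of the chosen gene lists held larger shares. At least 4-fold higher levels than in endothelial cells were found for 25 of 27 tested pericyte genes outside the rule, 21 of 23 genes of vasoactive receptors and cyclic nucleotide signalling, and 17 of 25 ion channel genes. Transporters followed with 11 of 16, contractile genes with 10 of 17 and matrix genes with 10 of 23. In the PDGF and Notch signalling list 7 of 31 were as high and 9 were at least 4-fold lower. Such lower genes numbered 3 in the matrix list, 1 each in the ion channel and transporter lists and 0 in the other 3 of these lists. Some counts of higher genes include rule genes. These are Kcnj8 and Abcc9 among ion channels, Abcc9 and Atp13a5 among transporters, Vtn in the matrix list and Notch3 in the signalling list. Their higher levels follow from how the cells were chosen and are not a finding. Other lists held few or no genes that were as high. The numbers were 0 of 23 immediate early, 0 of 16 glucocorticoid-responsive, 2 of 21 inflammatory and 2 of 66 nuclear respiratory chain genes. In the same order 7, 6, 13 and 1 genes were at least 4-fold lower.

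The pericytes were not uniform. After thinning to 2000 UMIs, 60 WT and 116 KIKO endothelial-poor pericytes remained, and the Fano factor (variance over mean, 1 for pure counting) had a median of 1.22 in WT and 1.26 in KIKO over 1630 genes. Acta2, the smooth muscle actin, had a Fano factor of 18.8 in WT and 15.9 in KIKO. It was found in 5% and 12.1% of these cells, and 1 cell held 72.7% of the WT and 29.2% of the KIKO Acta2 UMIs. Tagln, an actin-binding protein of smooth muscle, had 6.59 and 9.91. The nuclear-retained RNA Malat1 had 25.2 and 27.8, and the immediate early genes Jun and Fos had 8.62 and 7.75 in WT and 7.8 and 7.85 in KIKO. Pericyte genes covered a wide range in WT and KIKO, from 1.44 and 1.35 for Pdgfrb and 1.55 and 1.63 for Notch3, through 4.97 and 4.05 for Rgs5, to 10.2 and 13 for Vtn. Mean UMIs per thinned cell also differed, at 163 in both libraries for Malat1, 18.9 and 18.8 for Vtn and 0.55 and 0.914 for Acta2. The factor was not adjusted for level, so its order among genes does not rank their variability.

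At least 3 of the contractile genes Acta2, Tagln, Myh11, Cnn1 and Tpm2 were carried by 22 WT pericytes (12.7%, 8.14 to 18.6) and 30 KIKO pericytes (12.7%, 8.74 to 17.6). Among endothelial-poor pericytes they were 4 of 66 (6.06%, 1.68 to 14.8) and 16 of 127 (12.6%, 7.38 to 19.7), with overlapping intervals. Among endothelial-rich pericytes they were 18 of 107 (16.8%, 10.3 to 25.3) and 14 of 109 (12.8%, 7.2 to 20.6). Within the endothelial-poor pericytes the contractile cells held less of the potassium channel subunits. Abcc9 stood at 405 CPM in the contractile and 1901 CPM in the other cells in WT, and at 265 and 2285 CPM in KIKO. Kcnj8 stood at 62.4 and 787 CPM in WT and at 141 and 893 CPM in KIKO. Atp13a5 was also lower, at 1341 against 3155 CPM in WT and 1209 against 4061 CPM in KIKO. Notch3 (748 against 980 CPM, and 1086 against 1188 CPM) and Rgs5, a regulator of G protein signalling (7888 against 7190 CPM, and 5270 against 6120 CPM), were closer. Abcc9, Kcnj8, Atp13a5 and Notch3 belong to the rule that chose the cells, and the 4 WT contractile cells held only 13 Abcc9 and 2 Kcnj8 UMIs, so these levels are a description. Pdgfrb, outside the rule, stood at 779 against 1331 CPM in WT and 786 against 1505 CPM in KIKO.

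**Figure D2:**
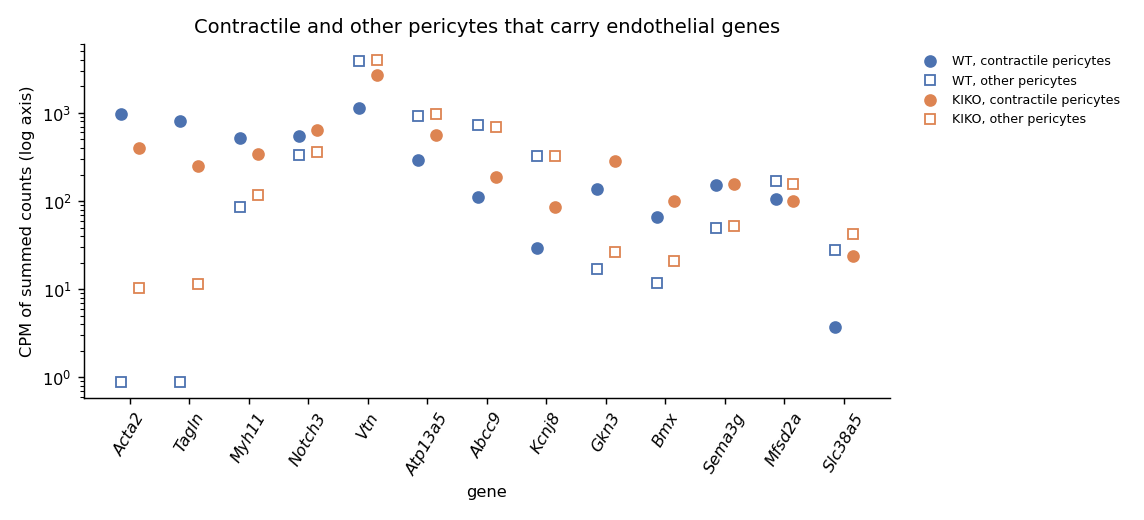
Levels (CPM, log axis) in endothelial-rich pericytes with at least 3 contractile genes and in the other endothelial-rich pericytes, for the libraries labelled WT and KIKO. Acta2 stood at 983 against 0.891 CPM in WT and at 395 against 10.3 CPM in KIKO. Acta2, Tagln and Myh11 helped to choose the contractile cells, so their higher levels follow from that choice and are not a finding.

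The comparison of genotypes asked how pericytes of the library labelled KIKO differed from those of the library labelled WT. Differences are log2 ratios of KIKO over WT in CPM with an exact Poisson 95% interval, which covers counting error only. A gene was tested when its mean CPM was at least 25, and no p-value can be given. The labels of the libraries were not checked against the targeted gene.

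Over all pericytes, 27 of 6248 genes (0.432%) were at least 2-fold higher and 26 (0.416%) at least 2-fold lower in the library labelled KIKO. The interval lay above 0 for 950 genes (15.2%) and below 0 for 854 (13.7%). In endothelial-poor pericytes 6047 genes were tested, of which 220 (3.64%) were 2-fold higher and 175 (2.89%) 2-fold lower, and 437 (7.23%) and 462 (7.64%) lay beyond counting error.

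The highest ratios of all were those of 4 haemoglobin genes, which the naming rule leaves out. Hbb-bs, a beta-globin gene, had 6 UMIs in the WT and 2269 in the KIKO pericytes, with 1410 of the latter in 1 cell. Among the other genes with a high ratio was Npas2, which encodes a paralog of CLOCK that pairs with BMAL1, at chr1:39193731-39363236. It stood at 19.7 CPM in WT and 66.7 CPM in KIKO pericytes (log2 ratio 1.76, 1.21 to 2.35). In endothelial-poor pericytes the ratio was 1.57 (0.68 to 2.58) and in endothelial-rich ones 1.50 (0.77 to 2.28). Pde10a, which encodes a phosphodiesterase of cAMP and cGMP at chr17:8525372-8986648, stood at 59.6 and 164 CPM (1.46, 1.13 to 1.79), with 1.27 (0.78 to 1.78) in endothelial-poor and 1.01 in endothelial-rich cells. Miga2, a mitochondrial fusion factor, stood at 17.9 and 48.3 CPM, with ratios of 1.27 and 1.23 in the 2 sets. Cdh4, a cadherin, stood at 37.6 and 94.2 CPM, with 1.09 (0.49 to 1.74) and 0.85. Lrmda stood at 29 and 110 CPM (1.92, 1.48 to 2.40). One KIKO cell held 54 of its 216 UMIs, and without the cell richest in it in each library the ratio was 1.73 (1.24 to 2.25). These 5 genes were higher in the library labelled KIKO in both sets of pericytes.

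Other high ratios rested on few cells or on 1 set. Ttr, the thyroid hormone carrier of the choroid plexus, stood at 1903 and 5943 CPM, but 4285 of the 11678 KIKO UMIs were in 1 cell. Its ratio was 2.36 in endothelial-rich and -1.22 in endothelial-poor pericytes. Igfbp2, which binds insulin-like growth factors, and Ecrg4 moved with it, with 3.43 and 2.52 in endothelial-rich and -1.73 and -2.06 in endothelial-poor pericytes. The part of choroid plexus RNA in these ratios was not tested. Ednrb, the endothelin B receptor, had 2.65 in endothelial-rich cells and 0.28 (-0.34 to 0.93) in endothelial-poor cells. Klhl12, a cullin adaptor, had 1.59 and 0.75 (-0.42 to 2.10).

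Among the genes with the lowest ratios was Dbp, a clock-controlled transcription factor at chr7:45705088-45710203. It stood at 39.4 CPM in WT and 10.7 CPM in KIKO (-1.88, -2.66 to -1.16), with -1.99 (-3.14 to -0.93) in endothelial-poor and -2.19 (-3.41 to -1.14) in endothelial-rich pericytes. Sertad1, a transcriptional co-regulator, stood at 238 and 101 CPM, with -1.24 (-2.01 to -0.48) in endothelial-poor and -1.03 in endothelial-rich cells. Egr3, an early growth response factor, stood at 77 and 24.4 CPM (-1.66), Tnfrsf12a, the receptor of TWEAK, at 87.4 and 29.5 CPM (-1.57), and Maff, a small MAF factor, at 69.5 and 27.5 CPM (-1.34). Kif23, a mitotic kinesin, stood at 42.8 and 10.7 CPM (-2.00, -2.78 to -1.29). Nup210l (-1.64), Emp1 (-1.61), Fam71a (-1.38) and Ism1 (-1.27) completed the 10. Kif23, Egr3, Nup210l, Emp1, Tnfrsf12a, Fam71a and Ism1 had at most 5 UMIs in the endothelial-poor pericytes of each library, so no difference was detectable there at this depth. Maff had 7 and 11 UMIs there, with a ratio of -0.40 and an interval that held 0. Each of these genes, Maff included, stood higher in endothelial cells than in endothelial-poor pericytes. Emp1 stood at 95 CPM in WT and 63.1 CPM in KIKO endothelial cells, against 0 and 1.45 CPM. Their ratios in endothelial cells were below 0 as well, from -0.97 for Nup210l to -0.16 for Tnfrsf12a.

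**Figure D3:**
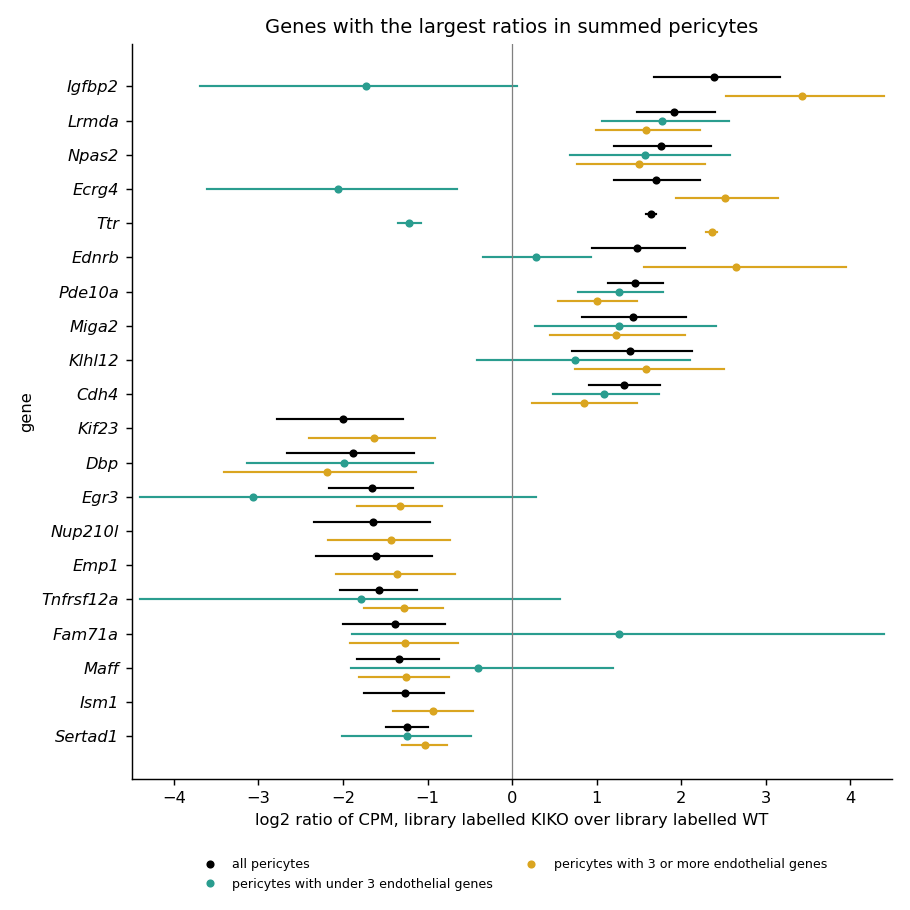
Log2 ratio of KIKO over WT (horizontal axis) of the 10 genes with the highest and the 10 with the lowest ratio in pericytes among genes with at least 30 UMIs, haemoglobin genes left out, for all, endothelial-poor and endothelial-rich pericytes, with exact Poisson 95% intervals as lines that end at the plot edge where longer. Npas2 (1.57 and 1.50) and Dbp (-1.99 and -2.19) kept their direction in both sets, and Igfbp2, Ecrg4 and Ttr did not.

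Pericyte genes outside the rule had a median log2 ratio of 0.26 over all pericytes, against 0.014 over all genes tested. Beyond counting error 12 of 27 were higher and 1 lower, beside 15.2% and 13.7% of all genes. In endothelial-poor pericytes the list median was 0.00078, with 1 higher and 9 lower, beside 7.23% and 7.64% of all genes. In endothelial-rich ones it was 0.064. The share of endothelial-rich cells, which hold less of these genes, was lower in the library labelled KIKO. Weighting both sets equally, a setting chosen after seeing the data, gave a median of 0.02. The part of the mix of cells in the ratios over all pericytes was not tested. Pdgfrb stood at 565 CPM in WT and 761 CPM in KIKO (0.43, 0.31 to 0.55), and its ratio was 0.12 (-0.048 to 0.29) in endothelial-poor pericytes. Cspg4, the NG2 proteoglycan, had 0.57 and 0.20. Rgs5 (-0.28, -0.35 to -0.21), Higd1b (-0.50, -0.70 to -0.29) and P2ry14, a receptor of UDP-sugars (-0.44, -0.68 to -0.19), were lower in endothelial-poor pericytes of the library labelled KIKO.

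Contraction and its control included genes that were higher in endothelial-poor pericytes. Contractile genes had a median of 0.14 there, with 4 of 16 higher and 0 lower, beside 7.23% and 7.64% of all genes. In endothelial-rich pericytes they ran the other way, with a median of -0.16, 1 higher and 6 lower. Acta2 had a ratio of 0.69 (0.42 to 0.97) in endothelial-poor and -1.39 in endothelial-rich pericytes, Myh11, the smooth muscle myosin, 0.48 and -0.14, and Lmod1, an actin nucleator, 1.13 and -0.014. Contractile cells were 6.06% of the WT and 12.6% of the KIKO endothelial-poor pericytes. They held 144 WT and 485 KIKO Acta2 UMIs, and the other endothelial-poor pericytes held 1 in each library. Within the contractile cells, which Acta2 helped to choose, it stood at 4490 CPM in WT and 4281 CPM in KIKO. The part of contractile cells in these ratios was not tested. Vasoactive receptors and cyclic nucleotide signalling had a median of 0.20, with 7 of 24 higher and 4 lower. The phosphodiesterase genes Pde8b (0.46, 0.34 to 0.58), Pde7b (0.51, 0.18 to 0.85) and Pde3a (0.55, 0.27 to 0.83) were higher, as was Prkg1, the cGMP-dependent kinase (0.39, 0.29 to 0.50). In endothelial-rich pericytes Pde8b had 0.31 and Pde7b 0.57, while Pde3a had -0.028 and Prkg1 -0.019. Gnas, the stimulatory G protein, was lower in endothelial-poor cells (-0.62, -0.79 to -0.46).

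Ion channels had 6 of 24 genes higher and 0 lower in endothelial-poor pericytes, beside 7.23% and 7.64% of all genes. The median was 0.14, and the rule gene Abcc9 is among the 6. Cacna1c, the pore of the L-type calcium channel, stood at 504 and 866 CPM over all pericytes, with ratios of 0.50 (0.33 to 0.67) in endothelial-poor and 0.32 in endothelial-rich cells, and its accessory subunit gene Cacnb2 had 0.37 and 0.02. Kcnj8 (0.10, -0.12 to 0.33) and Abcc9 (0.15, 0.012 to 0.30) in endothelial-poor cells are given as values, since both genes chose the cells.

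Matrix genes, a list that holds the rule gene Vtn, had 7 of 23 higher and 1 lower in endothelial-poor pericytes (median 0.26). Shares over all genes there were 7.23% higher and 7.64% lower. The laminin gene Lama4 had 0.76 (0.35 to 1.19) there and 0.48 in endothelial-rich cells, and Itga1, a collagen receptor subunit, had 0.55 and 0.22. PDGF and Notch signalling had a median of 0.083, with 3 of 31 higher and 3 lower, near the shares over all genes. Hes1, a Notch target, was lower at -1.05 (-1.36 to -0.74) and -0.53. The receptor gene Notch3 had 0.29 and 0.13, given as values because it is a rule gene. Transporters had 4 of 16 higher and 0 lower, with a median of 0.086. The transporter list holds the rule genes Abcc9 and Atp13a5.

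Immediate early genes, which are transcribed within minutes of a stimulus, were lower in the library labelled KIKO. All 23 tested were lower beyond counting error over all pericytes, with a median log2 ratio of -0.79. Of all genes, 13.7% were lower over all pericytes and 7.64% in endothelial-poor ones. In endothelial-poor pericytes 13 immediate early genes were lower and 0 higher (median -0.52), and in endothelial-rich ones 22 were lower and 0 higher (median -0.76). The median was -0.46 in endothelial cells of the same libraries, with 21 lower. Fos stood at 4735 CPM in WT and 2924 CPM in KIKO, Jun at 5099 and 2941, and Egr1 at 1981 and 925. Egr1 had -1.05 (-1.21 to -0.89) in endothelial-poor and -1.11 in endothelial-rich pericytes, and -1.06 in endothelial cells. Summed over the list, endothelial-poor pericytes held a median of 155 immediate early UMIs per 10000 UMIs in WT (quartiles 57 and 292) and 77.7 in KIKO (11.1 and 184). Endothelial-rich cells held 334 (220 and 470) and 177 (98.1 and 309). The quartile ranges of the libraries overlapped in both sets. Enzymatic tissue digestion is known to induce these genes, each genotype was digested as its own pool, and handling and genotype cannot be told apart.

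Some genes that respond to glucocorticoids and inflammation were lower, while most of both lists stayed within counting error in endothelial-poor pericytes. Of all genes, 7.23% were higher and 7.64% lower there, and 15.2% and 13.7% over all pericytes. Over all pericytes 0 of 16 glucocorticoid-responsive genes were higher and 12 lower, and 3 of 20 inflammatory genes were higher and 14 lower. In endothelial-poor pericytes 0 of the 16 glucocorticoid-responsive genes were higher and 5 lower (median -0.45). They included Angptl4, an inhibitor of lipoprotein lipase (-1.42, -2.10 to -0.75), and Zbtb16 (-0.69, -1.03 to -0.35). Of 20 inflammatory genes, 1 was higher and 6 lower (median -0.45), among them Socs3, an inhibitor of cytokine signalling (-1.11, -1.60 to -0.63), and the transcription factor gene Cebpb (-1.01, -1.36 to -0.66). The gene that was higher was Csf1, with 57 of its 61 UMIs in 1 cell. Medians in endothelial cells were -0.32 for the glucocorticoid list and -0.21 for the inflammatory list. Heat shock genes had a median of 0.044, with 1 of 19 higher and 4 lower, and the chaperone gene Hsph1 was higher at 0.49 (0.11 to 0.89).

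Clock genes lay on both sides of 0. The activators BMAL1 (Arntl) with CLOCK or NPAS2 bind E-boxes. Their targets include Dbp and also Per, Cry and Nr1d1, which feed back on them. Over all pericytes 4 of 17 tested clock genes were higher and 6 lower, beside 15.2% and 13.7% of all genes. Arntl stood at 41.7 CPM in WT and 80.9 CPM in KIKO, with ratios of 0.45 (-0.23 to 1.17) in endothelial-poor and 1.03 in endothelial-rich pericytes. Cry1 stood at 29.5 and 47.3 CPM, with 0.61 (-0.40 to 1.74) and 0.67. On the other side, Nr1d1 (REV-ERB alpha) had -1.18 (-1.91 to -0.46) and -0.52, Cry2 had -0.96 (-1.58 to -0.35) and -0.53, and Per1 had -0.40 (-1.06 to 0.28) and -0.98. Endothelial cells gave ratios of the same sign, with 0.70 for Npas2, 0.48 for Arntl, -0.81 (-1.38 to -0.23) for Dbp and -0.67 for Nr1d1. Each genotype was taken as 1 pool, so the hour of dissection and genotype cannot be told apart.

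**Figure D4:**
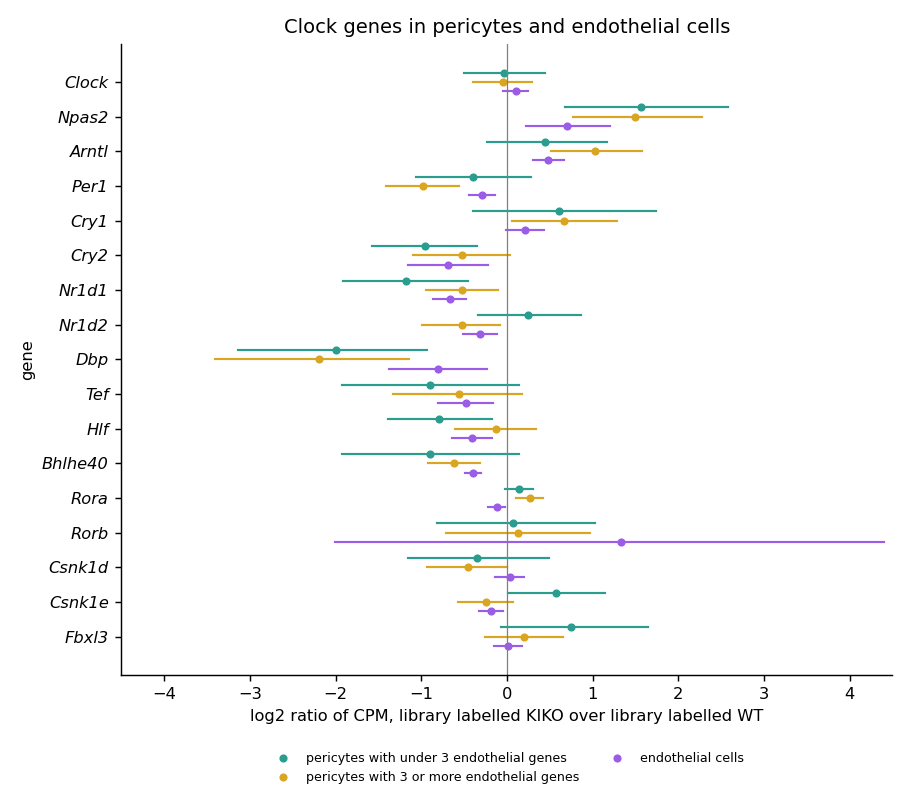
Log2 ratio of KIKO over WT (horizontal axis) of the tested clock genes in endothelial-poor pericytes, endothelial-rich pericytes and endothelial cells, with exact Poisson 95% intervals as lines that end at the plot edge where longer. Npas2 and Arntl lie to the right of 0 and Dbp, Nr1d1 and Cry2 to the left in each set of cells.

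The E-box CACGTG, which reads the same on both strands, was found between 250 bases before and 50 bases after a start site for 5 of the 19 clock genes with a promoter in the RefSeq table (26.3%), and for 8.09% of 27025 genes. The promoters of Per1 and Cry1, whose ratios lay on opposite sides of 0, are shown with the E-box in capitals. In Per1 (GRCm38.p6, chr11:69098699-69098998, plus strand) it lies at -166 to -161 from the start, and in Cry1 (chr10:85185005-85185304, minus strand) at -60 to -55. A second promoter of Per1 holds no match, and neither do those of Dbp and Nr1d1.
Per1: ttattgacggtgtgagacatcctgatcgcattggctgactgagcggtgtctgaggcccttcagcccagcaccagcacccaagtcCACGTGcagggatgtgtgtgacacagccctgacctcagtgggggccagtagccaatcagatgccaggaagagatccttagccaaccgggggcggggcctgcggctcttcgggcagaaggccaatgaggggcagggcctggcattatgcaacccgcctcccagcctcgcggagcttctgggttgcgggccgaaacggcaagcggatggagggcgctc
Cry1: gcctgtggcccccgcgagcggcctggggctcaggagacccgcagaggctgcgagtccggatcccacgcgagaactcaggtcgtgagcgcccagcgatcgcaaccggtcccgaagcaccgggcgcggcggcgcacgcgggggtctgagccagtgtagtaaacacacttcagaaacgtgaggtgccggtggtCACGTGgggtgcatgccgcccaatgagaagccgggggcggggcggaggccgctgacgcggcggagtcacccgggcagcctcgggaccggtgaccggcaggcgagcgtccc

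The CArG box, the site of serum response factor, was found for 3 of the 18 contractile genes with a promoter (16.7%) and for 1.81% of all genes. It is shown in capitals for Myl9, the smooth muscle regulatory light chain (chr2:156775214-156775513, plus strand), at -161 to -152. These matches describe the sequence and are not evidence of binding.
Myl9: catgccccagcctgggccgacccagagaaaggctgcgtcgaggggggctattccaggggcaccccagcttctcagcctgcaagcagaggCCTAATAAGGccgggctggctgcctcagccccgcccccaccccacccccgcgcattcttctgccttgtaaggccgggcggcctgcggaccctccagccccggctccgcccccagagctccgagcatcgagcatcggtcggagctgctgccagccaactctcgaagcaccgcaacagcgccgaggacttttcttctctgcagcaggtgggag

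Mitochondrial and iron genes were listed as well. Over all pericytes 11 of 13 mitochondrially encoded transcripts were higher and 0 lower beyond counting error (median 0.23), beside 15.2% and 13.7% of all genes. In endothelial-poor pericytes 4 were higher and 3 lower (median 0.097), with 0.38 (0.25 to 0.51) for the cytochrome oxidase subunit mt-Co2. Of all genes, 7.23% were higher and 7.64% lower in endothelial-poor pericytes. Nuclear respiratory chain genes had 0 of 66 higher and 9 lower (median -0.16). Of 11 genes of iron-sulfur cluster assembly, 0 were higher and 2 lower (median 0.23), one of them the glutaredoxin gene Glrx5 (-1.38, -2.60 to -0.18). Of 9 iron genes, 0 were higher and 3 lower, with -0.51 (-0.76 to -0.25) for the ferritin light chain Ftl1 and -0.32 (-0.52 to -0.12) for the heavy chain Fth1. Glycolysis had 0 of 15 genes beyond counting error. Cytosolic ribosomal protein genes, read as a check of RNA content, had 0 of 28 higher and 19 lower (median -0.41), and their median was -0.12 in endothelial cells. The part of RNA content in the lower respiratory and ferritin ratios was not tested.

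**Figure D5:**
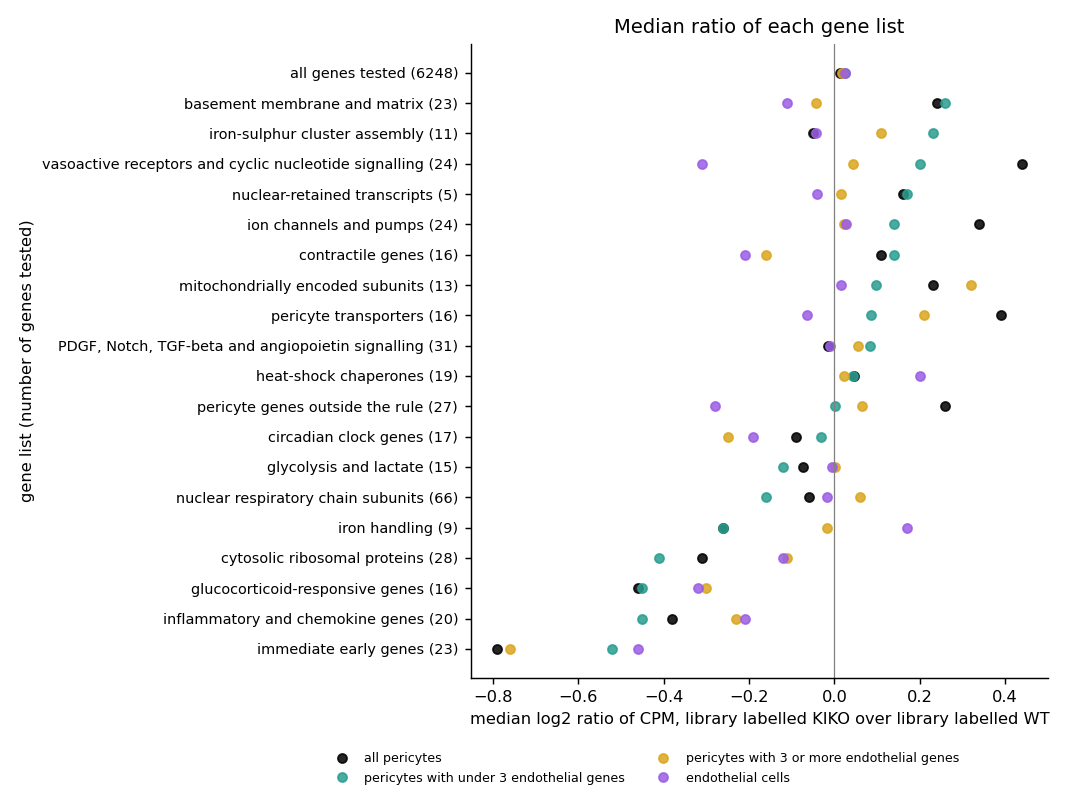
Median log2 ratio of KIKO over WT (horizontal axis) of each gene list in all, endothelial-poor and endothelial-rich pericytes and in endothelial cells. The immediate early genes lie lowest in all pericytes at -0.79, and the pericyte genes outside the rule lie at 0.26 in all and at 0.00078 in endothelial-poor pericytes.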

How the data were processed

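Counts of UMIs per gene and barcode were deposited by the authors as 1 matrix per library, made with Cell Ranger (version 7.0.1 in the matrix header) on mm10 from 10x 3′ v3.1 libraries. Each matrix still held 3237 (WT) or 3685 (KIKO) barcodes. The barcode numbers before and after filtering differ from those the study states. Barcodes with more than 500 genes, more than 1000 and at most 20000 UMIs and under 10% mitochondrial UMIs were kept. No doublet caller was run, and endothelial genes per cell were counted instead. Counts were summed over the cells of a library and scaled to CPM. With 1 library per group no test was made, and ratios carry exact conditional Poisson intervals and shares Clopper-Pearson intervals. A zero was set to a floor of 3 counts, and no ratio was given when both counts were at most 3. Named genes were list genes, the 10 highest and 10 lowest ratios with at least 30 UMIs, the 25 genes highest over endothelial cells and the 15 most variable genes. Results for some genes, the targeted gene among them, are not reported here. The members and lists were chosen with earlier results of these data known. The ratio code was tested on simulated data. Alternatives were other marker thresholds, UMI limits, scaling and filters. Python 3.11.15, scipy 1.17.1, R 4.3.3 and edgeR 4.0.16 (TMM factors of the counts) were used.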

Additional observations from a re-analysis of the deposited data

Results flagged for a closer look

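The genes listed here had a log2 ratio of KIKO over WT in pericytes opposite to that in endothelial cells of the same libraries, and the difference was not tested. The ratios in pericytes and in endothelial cells were 0.30 and -0.88 for Acta2, 0.43 and -1.03 for Myh11, 0.81 and -1.53 for Lmod1, 0.78 and -0.99 for Cacna1c, and 0.54 and -2.53 for Cacnb2. They were 0.62 and -0.73 for Pde3a, 0.47 and -0.73 for Notch3, 0.54 and -0.40 for Lamc3, 0.54 and -1.40 for Slc6a20a, and 0.47 and -0.12 for Rora. Most of these genes were low in endothelial cells. There Myh11 stood at 19.9 CPM in WT and 9.76 CPM in KIKO, Lamc3 at 17.4 and 13.2, and Pde3a at 8.3 and 5.02. Cacna1c, Cacnb2, Lmod1, Notch3 and Slc6a20a were also under 25 CPM there, the mean CPM set for testing in pericytes. Several endothelial ratios rested on few UMIs, summed over 811 WT and 1288 KIKO endothelial cells. The UMIs were 29 and 8 for Cacnb2, 29 and 16 for Lmod1, 55 and 44 for Cacna1c, and 63 and 38 for Slc6a20a. Acta2 had more, at 286 and 247. Notch3 had 51 and 49, and as a rule gene it was also limited by the choice of endothelial cells. In endothelial-poor pericytes these genes also had ratios above 0, with an interval that held 0 for Rora (0.14, -0.025 to 0.31). In endothelial-rich pericytes the ratio was below 0 for Acta2 (-1.39), Myh11 (-0.14), Lmod1 (-0.014), Pde3a (-0.028) and Lamc3 (-0.05), and Acta2 also fell below 0 at 4 or more pericyte genes (-0.23) and with equal weights of both sets (-0.35).

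Barcodes above 20000 UMIs lay outside the comparisons. Of these, 119 in WT and 114 in KIKO met the marker rule, and 114 and 113 of them carried at least 3 endothelial genes.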

How the results depend on the processing

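No paired analysis was possible because neither genotype had a second library, and no replicate could be left out. The cause of each shift below was not tested. Pericytes were 16.3% of WT and 15.9% of KIKO cells at 2 or more pericyte genes, 10.5% and 9.6% at 4 or more, 14.9% and 14.3% with no upper UMI limit, 9.71% and 9.68% after thinning, and 4.76% and 6.16% without endothelial-rich cells. With no UMI limit 75.7% and 63.4% were endothelial-rich. Contractile cells were 5.99% and 7.11% after thinning and 6.06% in WT without endothelial-rich cells. Genes 2-fold higher and lower numbered 220 and 175 without endothelial-rich cells, 43 and 42 at 4 or more pericyte genes, 67 and 48 by the mean of per-cell CPM, 128 and 71 at a mean CPM of 10, and 7 and 8 at 100. With no UMI limit 14 were 2-fold higher and 39 lower, and 1874 were higher and 781 lower beyond counting error. Genes beyond counting error numbered 437 and 462 without endothelial-rich cells, 477 and 512 in those cells alone, and 437 and 528 at a mean CPM of 100.

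The pericyte list median was 0.00078 without endothelial-rich cells and 0.02 with equal weights. The immediate early median was -0.52 without endothelial-rich cells, -0.93 without contractile cells, -0.94 at 4 or more pericyte genes, -0.31 with no UMI limit and -0.68 with equal weights. The ribosomal median was -0.43, -0.047 and -0.11 at 4 or more genes, with no limit and in endothelial-rich cells alone. Over all settings 679 of 916 gene ratios kept within their interval, and 27 gene ratios, in 17 of 84 genes, reversed. List medians have no interval, and 204 of 227 moved by no more than the median half-width of their genes' intervals. TMM factors and a median ratio set to 0 shift all genes equally, and each kept 84 of 84 gene ratios.

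Without endothelial-rich cells the ratio was -1.73 for Igfbp2, -2.06 for Ecrg4, -1.22 for Ttr, 1.27 for Fam71a, 0.59 for Id1 and -0.1 for Vtn. With no UMI limit it was -1.54 for Igfbp2, -1.20 for Ecrg4, -1.30 for Ttr, 0.041 for Emp1, 0.13 for Ism1 and 0.10 for Rgs5. Without cells carrying red blood cell or choroid plexus genes it was -0.27 for Igfbp2, -1.70 for Ecrg4 and -1.15 for Ttr. In endothelial-rich cells alone it was -1.39 for Acta2, -0.14 for Myh11, -0.014 for Lmod1, -0.17 for Ednra, -0.019 for Prkg1, -0.028 for Pde3a, -0.05 for Lamc3 and -0.70 for Csf1. Acta2 had -0.23 at 4 or more pericyte genes and -0.35 with equal weights, Id1 had 0.14 with equal weights, and Csf1 had -0.73 without its richest cell in each library. The settings restricted to endothelial-rich cells, with equal weights, without red blood cell or choroid plexus genes and without the richest cell were chosen after seeing the data.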

Other observations

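Endothelial-rich pericytes with contractile genes also differed in their endothelial genes. These vessel-type genes were chosen after their values were seen. Gkn3, a gene of arterial endothelium, stood at 136 CPM in the contractile and 16.9 CPM in the other endothelial-rich pericytes in WT, and at 286 and 26.3 CPM in KIKO. Bmx, another arterial gene, stood at 66 and 11.6 CPM in WT and at 100 and 20.7 CPM in KIKO. Sema3g, also arterial, stood at 154 and 49.9 CPM in WT and at 157 and 51.6 CPM in KIKO. Mfsd2a, the lipid transporter of brain capillaries, ran the other way, at 106 and 170 CPM in WT and 100 and 156 CPM in KIKO. Vwf, which is high in veins, showed no common order, at 69.7 and 52.6 CPM in WT and 42.9 and 62 CPM in KIKO.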
